A study of Mus musculus with 4 samples.

Results

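The cells described here are CD4 T cells of a naive-like kind from the left ventricle of the mouse heart: 260 of the 11148 leukocytes that could be assigned to a mouse, 86 from sham mice and 174 from DOCA-salt mice. They were selected on RNA alone. A cell needed at least 2 UMIs (unique molecules) summed over the CD3 chain genes Cd3e, Cd3d and Cd3g, at least 1 UMI of Cd4, at least 1 UMI of Lef1 or Ccr7, and 0 UMIs of Cd8a, Cd8b1 and Foxp3. At most 2 UMIs of the B cell genes Cd79a, Cd79b and Ms4a1 and at most 4 of the macrophage genes C1qa, C1qb and C1qc were allowed, so the levels of all these genes are given only as a description of the choice. The study compared leukocytes of the heart in C57Bl6J mice after sham treatment with those after DOCA-salt, a mineralocorticoid (deoxycorticosterone acetate) combined with a salt load that is used to model hypertension. Hearts were perfused and digested, CD45+ cells were enriched on magnetic beads and sorted as live single cells, and RNA and surface antibodies were read together by 5' single-cell sequencing. Each group held 4 mice, told apart by a hashtag antibody, and the labels give no age, sex, dose or duration. Each group was 1 library, so group and library cannot be told apart in any comparison below.

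Naive CD4 T cells have left the thymus but have not yet met their antigen. They circulate through blood and lymphoid organs, kept in a resting state by interleukin-7, tonic T cell receptor contact with MHC class II, and the transcription factors Lef1, Tcf7 and Klf2, and they enter lymph nodes with the help of the chemokine receptor Ccr7. Most T cells that settle in peripheral tissue are instead antigen-experienced cells, which lose this homing receptor and carry more CD44, S100a4 and Itgb1.

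The sham library held 4359 barcodes and 13304511 RNA UMIs and the DOCA-salt library 7600 barcodes and 29764964 UMIs, of which 4118 and 7030 cells were used. Single sham mice gave 19, 24, 13 and 30 naive-like CD4 T cells with 41884 to 124529 UMIs in all, and single DOCA-salt mice 51, 43, 23 and 57 cells with 114011 to 293655 UMIs. The libraries shared 41 barcodes, of which 0 belonged to these cells, and the doublet caller Scrublet marked 0 of the sham and 4 of the DOCA-salt cells.

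Marker genes that the selection did not use separated these cells to different degrees. Igfbp4, an IGF-binding protein whose RNA marks naive CD4 T cells in mice, had a UMI in 59 of 86 sham cells (68.6%; exact 95% binomial interval 57.7% to 78.2%) and in 144 of 174 DOCA-salt cells (82.8%; 76.3% to 88.1%). B cells do not make it and served as background, with a UMI in 2.29% and 2.30%. Naive-like CD8 T cells (Cd8a or Cd8b1, no Cd4, and Lef1 or Ccr7; 127 sham and 365 DOCA-salt cells) held Igfbp4 too. Single mice gave 45 to 112 of its UMIs in sham and 222 to 275 in DOCA-salt. The comparisons with B cells here do not show that these genes set CD4 apart from CD8 cells. The median cell held 3603.5 and 5337.5 UMIs among naive-like CD4 T cells and 2650 and 2952 among B cells. Tcf7, a partner of Lef1, was seen in 77.9% and 81.0% of the naive-like cells and in 0.508% and 0.575% of B cells, and Il7r, the interleukin-7 receptor chain, in 84.9% and 87.9% against 0.592% and 0.927%. These intervals cover counting error only. Il2ra, a marker of activated and regulatory T cells, had a UMI in 0 of 86 and 0 of 174 cells (exact upper limits 4.20% and 2.10%), a limit on cells with a UMI and not on cells that express the gene. Other regulatory T cell genes outside the selection were seen, Ctla4 in 8 of 86 and 12 of 174 cells and Ikzf2 in 1 and 6. RNA from macrophages was present: 37.5% to 53.8% of the naive-like cells of each sham mouse and 26.1% to 46.5% of those of each DOCA-salt mouse held at least 1 C1q UMI.

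Conventional CD4 T cells in which neither Lef1 nor Ccr7 was seen, called memory-like here, were few, 6 sham and 24 DOCA-salt cells. They had an Igfbp4 UMI in 0 of 6 and 1 of 24 cells and a Satb1 UMI in 0 of 6 and 1 of 24, against 74.4% and 71.3% of naive-like cells. Tcf7, Il7r and Klf2 separated them less: memory-like cells held Tcf7 in 2 of 6 and 12 of 24 cells, Il7r in 3 of 6 and 16 of 24 and Klf2 in 6 of 6 and 17 of 24. Of genes of antigen-experienced cells, the naive-like cells held Crip1 in 72.1% and 89.1% and Lgals1 in 30.2% and 52.3%. Memory-like cells held Crip1 in 5 of 6 and 24 of 24 and Lgals1 in 5 of 6 and 23 of 24. The others were rarer in naive-like cells: S100a4 in 5.81% and 15.5%, S100a6 in 12.8% and 16.7%, Itgb1 in 15.1% and 20.7%, Cd44 in 4.65% and 11.5%. Memory-like cells held S100a4 in 3 of 6 and 17 of 24, S100a6 in 5 of 6 and 22 of 24, Itgb1 in 6 of 6 and 22 of 24, and Cd44 in 2 of 6 and 10 of 24. Just inside the threshold lay 7 sham and 7 DOCA-salt cells with exactly 1 UMI of Lef1 and Ccr7 together. The cells just outside it, at 0, are the memory-like cells themselves.

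The CD4 protein matched the RNA selection. With 800 antibody UMIs taken as the lower limit of a CD4-positive cell, 84 of 86 sham and 172 of 174 DOCA-salt naive-like cells were positive, and 0 and 1 of them reached 500 UMIs of the CD8a antibody. Of T cells that were positive for CD4 protein only, 105 of 192 sham cells (54.7%; exact interval 47.4% to 61.9%) and 222 of 358 DOCA-salt cells (62.0%; 56.8% to 67.1%) held a Cd4 UMI. The comparisons were repeated with the CD4 and CD8a antibodies in place of the RNA conditions, a choice added after seeing the data.

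A small group within the naive-like cells carried CD44 protein at the level of memory-like cells and differed in RNA. At or above the memory-like median of 2561.5 CD44 antibody UMIs stood 17 cells, 3 sham and 14 DOCA-salt, and 243 stood below. The division is a point on a continuous range, and 4 sham and 22 DOCA-salt cells lay within 1.5-fold of it. Of the 17 CD44-high cells, 3 (17.6%) held an Igfbp4 UMI, against 82.3% of the others and 3.33% of memory-like cells. Satb1, a chromatin organiser of naive T cells, was seen in 29.4%, 75.3% and 3.33%, in the same order. The genes of antigen-experienced cells ran the other way: S100a4 was seen in 76.5% of CD44-high cells, 7.82% of the others and 66.7% of memory-like cells, and the integrin chain Itgb1 in 82.4%, 14.4% and 93.3%. The calcium-binding protein gene S100a6 was seen in 88.2%, 10.3% and 90.0%. The CD44-high cells were also deeper, with a median of 6010 UMIs against 4715 in the others and 4186 in memory-like cells, and the part of depth in these shares was not tested. By mouse, CD44-high cells made up 5.26%, 0%, 0% and 6.67% of sham naive-like cells and 7.84%, 6.98%, 4.35% and 10.5% of DOCA-salt naive-like cells, ranges that overlap.

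**Figure D1:**
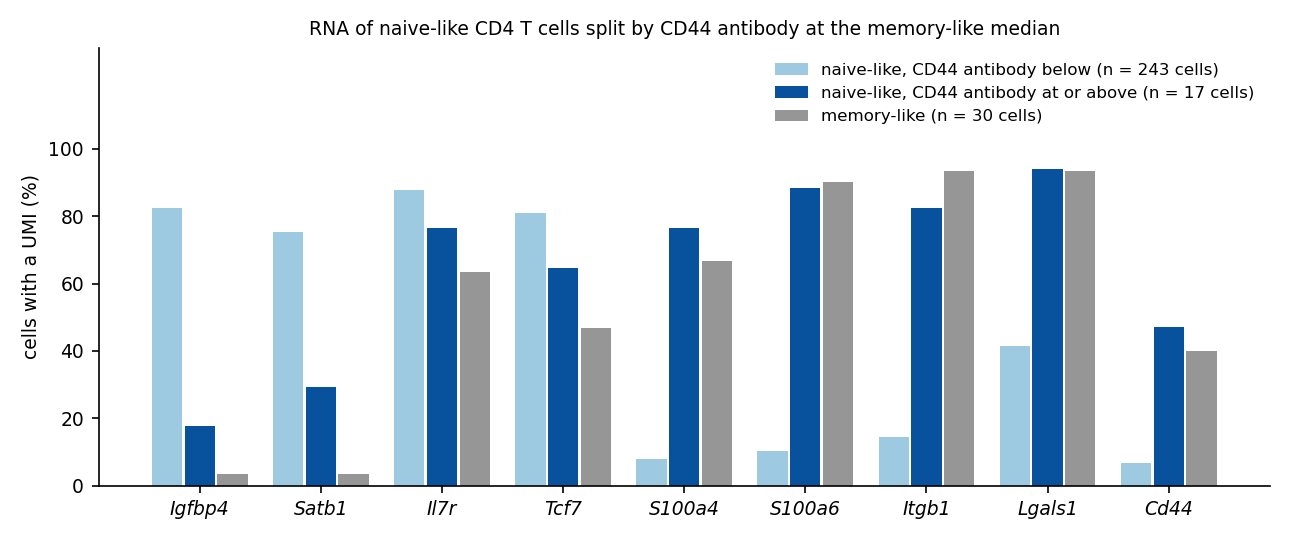
Bars give the percent of cells with at least 1 UMI of each gene in naive-like CD4 T cells below (243 cells) and at or above (17 cells) the CD44 antibody level of 2561.5 UMIs and in memory-like cells (30 cells). The 17 CD44-high cells stood near the memory-like cells for S100a4, S100a6 and Itgb1 and between the other groups for Igfbp4 and Satb1.

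The share of naive-like CD4 T cells was compared on 3 denominators, with p adjusted over them. Of all assigned cells they made up 1.93%, 1.97%, 2.07% and 2.32% in sham mice and 2.30%, 2.25%, 2.95% and 2.68% in DOCA-salt mice (mean 2.08% ± 0.176 against 2.55% ± 0.331, SD over 4 mice each; two-sided exact permutation test, p = 0.0857 and 0.129 after adjustment). The highest sham mouse stood above the lowest 2 DOCA-salt mice, so the groups overlapped. Of all T cells they made up 21.8%, 27.0%, 20% and 21.4% in sham mice and 20%, 20.4%, 17.8% and 18.8% in DOCA-salt mice (mean 22.6% ± 3.04 against 19.3% ± 1.16; the same test, exact p = 0.0857 and 0.129 after adjustment). The means differed in opposite directions on these denominators, and neither difference passed.

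Among conventional CD4 T cells most were naive-like in every heart. The share was 95%, 100%, 92.9% and 88.2% in sham mice and 82.3%, 87.8%, 88.5% and 93.4% in DOCA-salt mice (mean 94.0% ± 4.88 against 88.0% ± 4.58, SD; exact permutation test, p = 0.171 before and after adjustment). Detection of Lef1 and Ccr7 can depend on depth. With each cell thinned to 1000 UMIs the share was 79.8% ± 12.4 and 73.6% ± 14.2. Too shallow to be thinned were 0 sham and 1 DOCA-salt naive-like cell. The selection was applied again after thinning, and 31 sham and 42 DOCA-salt cells met it, against 86 and 174 before. They stood among 38 and 59 conventional CD4 T cells, so the thinned shares rest on few cells.

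Gating on the CD4 and CD8a antibodies gave a larger difference among T cells. With this gate, added after seeing the data, naive-like CD4 T cells made up 46.0%, 49.4%, 47.7% and 42.1% of sham T cells and 37.6%, 33.6%, 34.9% and 31.0% of DOCA-salt T cells (46.3% ± 3.12 and 34.3% ± 2.75, SD, n = 4). The groups did not overlap, the exact permutation p was 0.0286, the smallest that 4 mice against 4 allow, and the adjusted p was 0.0857.

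**Figure D2:**
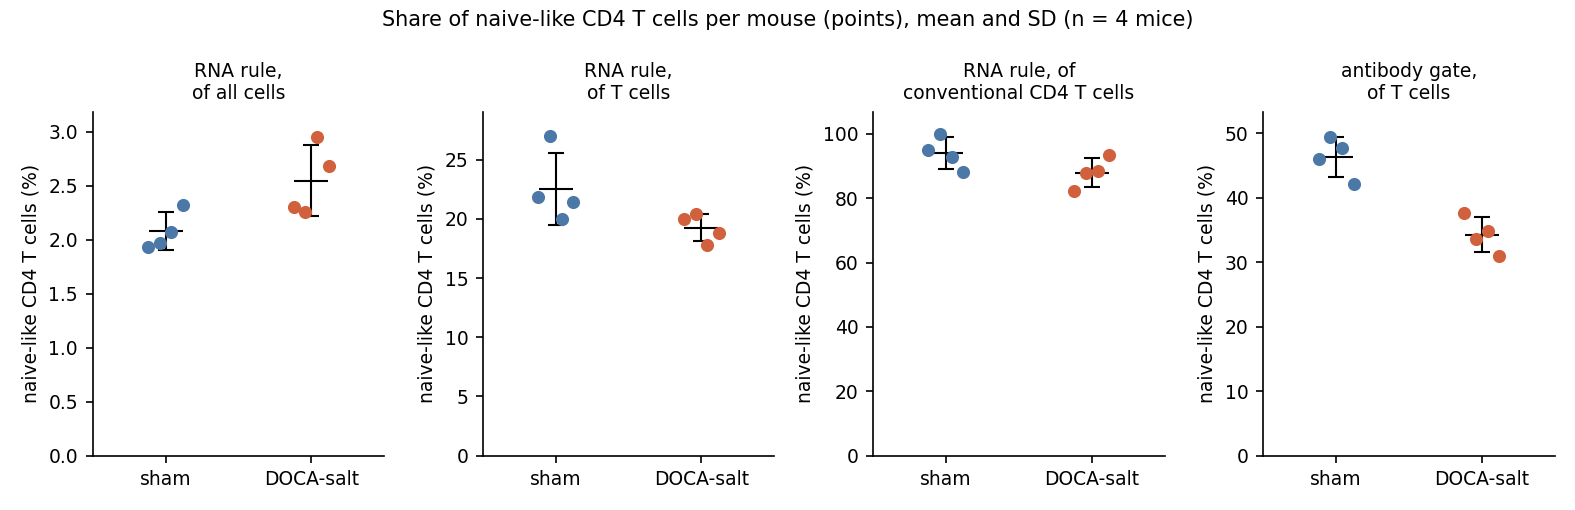
Naive-like CD4 T cells of each mouse as a percent of all assigned cells, of T cells and of conventional CD4 T cells under the RNA selection, and of T cells under the antibody gate; points are mice, and lines and bars are the mean and SD of 4 mice. The antibody gate is the only panel in which all 4 sham mice stood above all 4 DOCA-salt mice.

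Naive-like CD4 T cells of DOCA-salt hearts gave more detected RNA UMIs per cell. The part of capture and sequencing depth in this was not tested. The median was 3584, 3364, 3152 and 3988.5 UMIs in the sham mice and 5210, 5294, 5381 and 5408 UMIs in the DOCA-salt mice. Every DOCA-salt mouse stood above every sham mouse, and the DOCA-salt mice lay close together (3522 ± 357 and 5323 ± 89.8 UMIs, SD, n = 4). On the log2 scale the difference was 0.60, or 1.52-fold (exact permutation p = 0.0286, adjusted p = 0.0357 over the 5 depth comparisons, all added after seeing the data). The median number of genes per cell ran from 1220.5 to 1374.5 in sham and from 1564 to 1687 in DOCA-salt mice.

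Other lymphocytes of the same libraries moved less. Naive-like CD8 T cells had medians of 5037, 5153, 4828 and 4987 UMIs in sham mice and 6455.5, 6296.5, 6378 and 6194 in DOCA-salt mice, a 1.27-fold difference (exact permutation p = 0.0286, adjusted p = 0.0357). B cells had medians of 2547 to 2800 in sham and 2597 to 3041 in DOCA-salt mice, a 1.09-fold difference whose groups overlapped (exact permutation p = 0.114). Divided by the B cell median of the same mouse, the naive-like CD4 value was still 1.39-fold higher in DOCA-salt mice, and divided by the CD8 median 1.20-fold higher, each with exact permutation p = 0.0286 and adjusted p = 0.0357. Under the antibody gate the difference was 1482 UMIs instead of 1801, again with no overlap. Without any 1 mouse no exact permutation test can pass, since 3 against 4 mice reach p = 0.0571 at best.

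**Figure D3:**
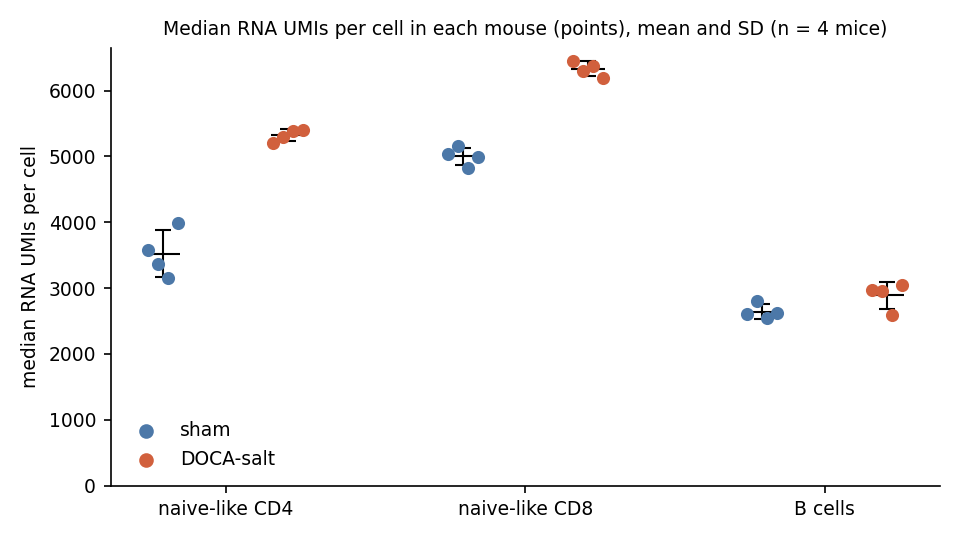
Median RNA UMIs per cell in naive-like CD4 T cells, naive-like CD8 T cells and B cells; points are mice, and lines and bars are the mean and SD of 4 mice per group. The CD4 cells of all DOCA-salt mice (5210 to 5408) stood above those of all sham mice (3152 to 3988.5), while the B cells of the groups overlapped.

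Gene levels were compared on UMIs summed over the naive-like CD4 T cells of each mouse and are given as CPM (counts scaled to a common library total, here after TMM scaling). Of 1427 genes with enough counts, 12 changed (0.841% of those tested; edgeR quasi-likelihood test, adjusted p under 0.05), 7 higher and 5 lower in DOCA-salt mice. DESeq2 called 37, of which 34 were higher and 3 lower, and left 1272 adjusted p undefined. The survival gene Bcl2, the motor protein gene Myo6, the surface antigen gene Ly6c1, the ribosomal protein genes Rpl3 and Rpl12, the mitochondrial gene mt-Atp8 and the noncoding RNA AY036118 were higher. The nuclear noncoding RNA Malat1, the antiproliferative gene Btg1, the selenium carrier gene Selenop, the invariant chain gene Cd74 and the transcription factor gene Ets1 were lower. The values of a gene did not overlap between the groups' mice in 132 genes (9.25%). All changes below are log2 differences of DOCA-salt minus sham, and the median over all tested genes was −0.03, with 663 above 0. The 1427 genes are the abundant ones, since each sham mouse gave few UMIs. No call was independent of single mice: without DOCA-salt mouse 4, 0 of the 12 passed, with 143 genes at an unadjusted p under 0.05 (edgeR). Summed levels of gene lists below are CPM over all RNA UMIs without the TMM scaling, a different scale from the CPM of single genes.

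Malat1, a nuclear long noncoding RNA and one of the most abundant transcripts of resting lymphocytes (chr19:5795690-5802672, GRCm38, minus strand), fell most clearly. It stood at 6970, 10721, 12261 and 8366 CPM in the sham mice and at 5312, 4835, 5378 and 4770 CPM in the DOCA-salt mice. The lowest sham mouse was above the highest DOCA-salt mouse. The log2 difference was −0.90 ± 0.130 (SE; edgeR adjusted p = 0.00417). Per cell it stood at 27.0 to 32.5 UMIs in sham mice and 19.4 to 22.5 in DOCA-salt mice, where the median of all RNA UMIs per cell was higher. Without DOCA-salt mouse 4 the difference was −0.87 (adjusted p = 0.0568). Malat1, the only tested gene of 6 listed as nuclear noncoding RNAs, fell in the other lymphocytes as well, by −0.96 in naive-like CD8 T cells (adjusted p = 2.69e-09) and −0.76 in B cells (edgeR), and the test of a difference between CD4 and CD8 cells gave 0.11 (adjusted p = 0.94).

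Btg1, which restrains proliferation and takes part in mRNA deadenylation in quiescent T cells (chr10:96617006-96622809, plus strand), showed the same order. It stood at 2079, 2968, 2760 and 2483 CPM in sham mice and 1549, 1352, 1893 and 1417 CPM in DOCA-salt mice, without overlap. The log2 difference was −0.74 ± 0.129 (SE; edgeR adjusted p = 0.0134), against −0.87 in CD8 and −0.71 in B cells, both of which passed. Without Sham mouse 2, Sham mouse 4 or DOCA-salt mouse 4 it was −0.64, −0.74 and −0.69, with edgeR adjusted p of 0.0988, 0.0543 and 0.0942. Of the 16 genes listed for quiescence and mRNA decay, 10 were tested and all 10 were below 0, with a median of −0.35, but Btg1 was the only 1 to pass. Zfp36l2, an RNA-binding protein that destabilises mRNAs, differed by −0.81 (adjusted p = 0.127) and passed in CD8 cells, in B cells and under the antibody gate (adjusted p = 0.0151), and Klf2, which holds T cells in quiescence and drives S1pr1, by −0.26 (adjusted p = 0.366). The list's median was −0.28 in CD8 and −0.32 in B cells.

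Bcl2, the anti-apoptotic protein that interleukin-7 sustains in naive T cells (chr1:106538178-106714274, minus strand), rose. It stood at 299, 325, 262 and 253 CPM in the sham mice and at 703, 475, 720 and 678 CPM in the DOCA-salt mice. Every DOCA-salt mouse was above every sham mouse, and DOCA-salt mouse 2 stood apart from the other 3. The log2 difference was 1.17 ± 0.190 (SE; edgeR adjusted p = 0.00874). A Bcl2 UMI was seen in 41.7% to 61.5% of the cells of a sham mouse and in 74.4% to 84.2% of those of a DOCA-salt mouse, with 9 to 26 and 62 to 157 UMIs in all. It rose in CD8 cells too, by 0.61 (adjusted p = 0.0148), and differed by 0.21 in B cells (adjusted p = 0.3). The test of a CD4 against CD8 difference gave 0.59 (adjusted p = 0.503). Without Sham mouse 4 or DOCA-salt mouse 4 the Bcl2 difference was 1.10 and 1.14, with edgeR adjusted p of 0.0543 and 0.0568.

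Of the 16 genes listed for interleukin-7 signalling and survival, 9 were tested, 6 above and 3 below 0, with a median of 0.18, and Bcl2 was the only 1 to pass. Il7r itself stood at 937 to 1315 CPM in sham and 1147 to 1673 CPM in DOCA-salt mice, with a difference of 0.15 (edgeR adjusted p = 0.792). The shared cytokine receptor chain gene Il2rg differed by 0.18 and the kinase gene Jak1 by −0.32, neither passing.

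Myo6, an unconventional myosin that moves toward the minus end of actin (chr9:80165031-80311729, plus strand), had the highest fold of the 12. It was rare in sham mice, with 4, 1, 4 and 1 UMIs, and stood at 50, 23, 34 and 58 UMIs in DOCA-salt mice. In CPM these are 54.3, 14.8, 116 and 9.74 against 231, 120, 395 and 251, without overlap. The log2 difference was 2.65 ± 0.533 (SE; edgeR adjusted p = 0.0302), and a UMI was seen in 3.33% to 15.8% of the cells of single sham mice and 30.2% to 56.5% in DOCA-salt mice. Too few UMIs were counted for it to be tested in CD8 or B cells alone. The difference was 2.05 under the antibody gate, where it also passed, and 1.74 (adjusted p = 0.401) without the cells that held C1q UMIs. Without Sham mouse 1, 2 or 4 or DOCA-salt mouse 4 its edgeR adjusted p was 0.0589, 0.0988, 0.0983 and 0.111.

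Ly6c1, a GPI-anchored antigen of the Ly6 family (chr15:75044018-75048830, minus strand), stood at 367, 295, 262 and 360 CPM in sham and 596, 731, 465 and 592 CPM in DOCA-salt mice. The log2 difference was 0.87 ± 0.183 (SE; edgeR adjusted p = 0.0308). It did not pass without any 1 of the 4 sham mice or without DOCA-salt mouse 2 or 4 (edgeR adjusted p 0.0589 to 0.114). It is uncertain, because the near-identical neighbour Ly6c2 can share its reads, and under the antibody gate it was 0.35 (adjusted p = 0.582). AY036118 stood at 476 to 726 CPM in sham and 888 to 1257 CPM in DOCA-salt mice (0.84 ± 0.166; adjusted p = 0.0302). It did not pass without Sham mouse 1, 2 or 4 or DOCA-salt mouse 2 or 4 (edgeR adjusted p 0.0543 to 0.123). Under the antibody gate it was 0.54 (adjusted p = 0.0833). It overlaps CT010467.1 on the same strand and Gm42418 on the opposite strand and is uncertain for that reason.

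Ets1, a transcription factor that T cells need for survival and for Il7r expression (chr9:32636221-32757820, plus strand), fell from 842, 945, 1395 and 1013 CPM in sham mice to 684, 642, 616 and 605 CPM in DOCA-salt mice. The log2 difference was −0.67 ± 0.150 (SE; edgeR adjusted p = 0.0396), against −0.27 in CD8 and −0.15 in B cells, neither of which passed. As molecules per cell the groups overlapped, at 2.67 to 3.69 UMIs in sham and 2.30 to 2.90 in DOCA-salt mice. It passed only without DOCA-salt mouse 1 and in none of the other 7 fits that left out 1 mouse (edgeR adjusted p 0.0589 to 0.185). Selenop, the secreted selenium carrier (chr15:3268547-3280508, plus strand), fell from 611, 665, 843 and 653 CPM to 370, 329, 441 and 445 CPM (−0.78 ± 0.163; adjusted p = 0.0308). It was lower in CD8 cells by −0.84 (edgeR adjusted p = 0.0261) and differed by −0.20 in B cells (adjusted p = 0.383). It passed only without DOCA-salt mouse 3 (edgeR adjusted p 0.0537 to 0.111 without another mouse). Macrophages make much Selenop, and the part of their RNA in this change was not tested.

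**Figure D4:**
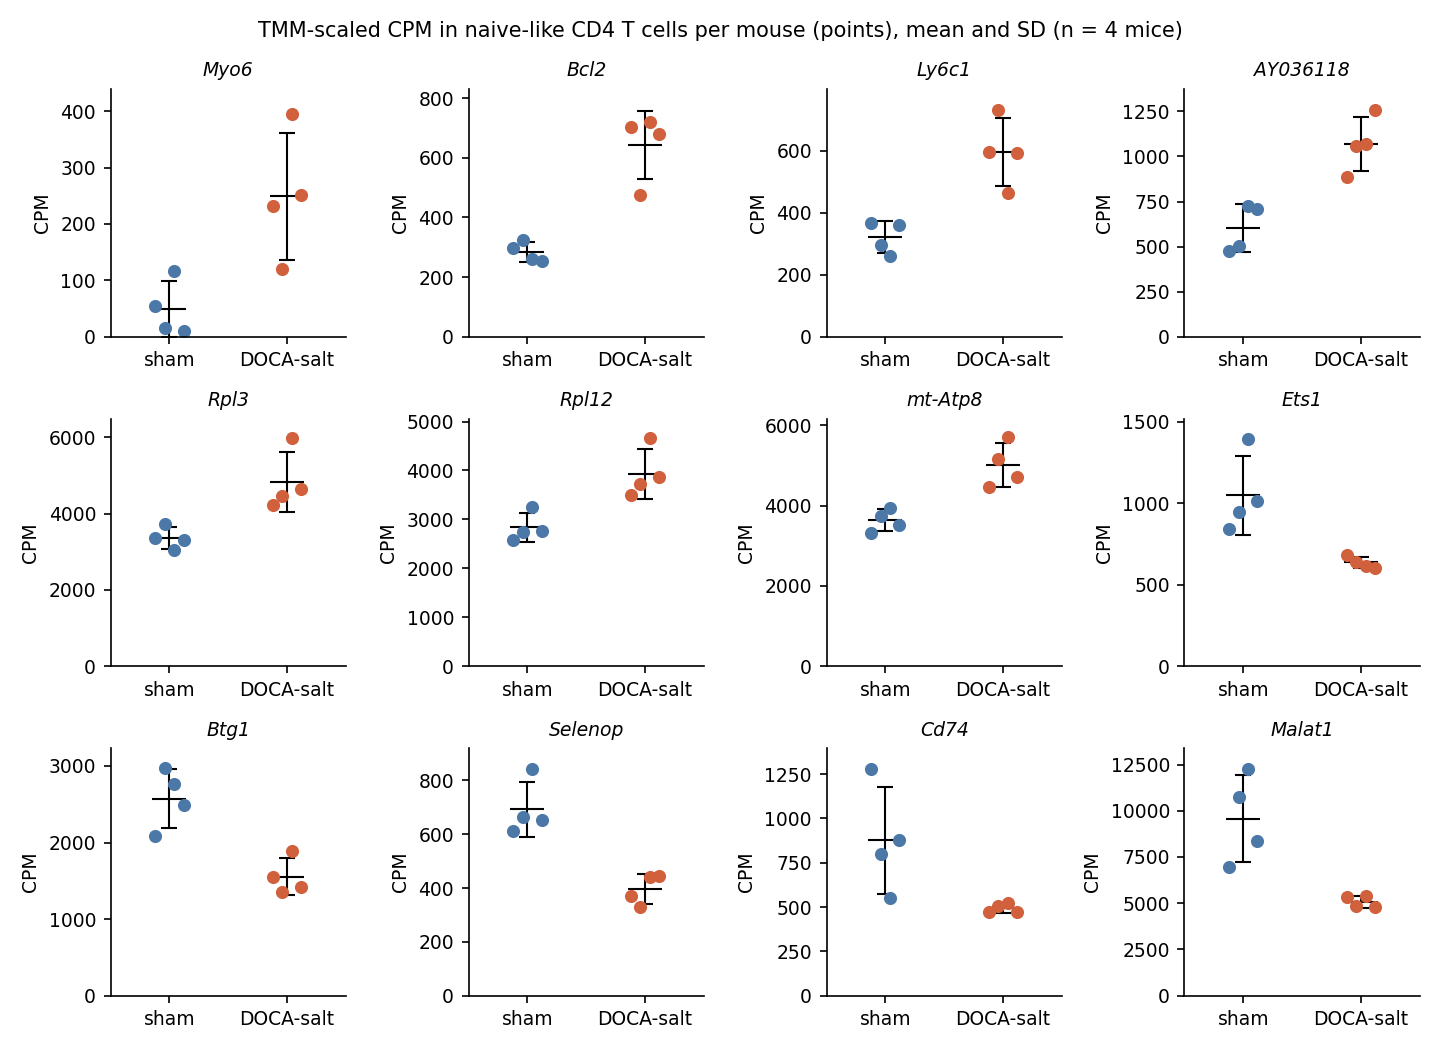
TMM-scaled CPM of the 12 changed genes in the naive-like CD4 T cells of each mouse; points are mice, and lines and bars are the mean and SD of 4 mice per group, each panel with its own axis from 0. In all 12 panels every DOCA-salt mouse lies on the same side of every sham mouse, with Myo6 at 9.74 to 116 in sham and 120 to 395 in DOCA-salt mice.

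Of the genes that define the naive state most did not pass the test. Of 22 genes listed for naive identity, 20 were tested, of which Lef1 and Ccr7 belong to the selection. Of the other 18, 7 were above and 11 below 0, with a median of −0.13, the same as in CD8 cells, and Ets1 was the only 1 to pass. Igfbp4 stood at 611, 1344, 1801 and 1120 CPM in sham and 1479, 1686, 3206 and 1759 CPM in DOCA-salt mice. Sham mouse 3 stood above 3 of the DOCA-salt mice, and the difference of 0.77 ± 0.259 did not pass (SE; edgeR adjusted p = 0.173). It did pass when no filter on low counts was used (0.96; adjusted p = 5.04e-07). In CD8 cells the Igfbp4 difference was −0.05, and the test of the CD4 against CD8 difference gave 0.90 (adjusted p = 0.219).

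Other genes of the naive programme did not pass either. Tcf7 stood at 643 to 843 CPM in sham and 470 to 639 CPM in DOCA-salt mice, with no overlap and a difference of −0.38 (edgeR adjusted p = 0.303). Satb1 differed by −0.33 (adjusted p = 0.653), the egress receptor gene S1pr1 by −0.42 (0.54) and the repressor gene Bach2, which guards T cell quiescence, by −0.21 (0.897). Of 14 tested genes for migration, homing and egress, 3 were above and 11 below 0, with a median of −0.21 and 0 passing (edgeR). The small GTPase gene Rac2 stood at 1522 to 1728 CPM in sham and 1080 to 1478 CPM in DOCA-salt mice (−0.23; adjusted p = 0.432).

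Ribosomal protein genes stood above 0 almost throughout. Of 83 listed, 78 were tested, 76 above and 2 below 0, with a median of 0.21. In CD8 cells the median was 0.06 and in B cells 0.08. Only Rpl3 and Rpl12 passed (edgeR). The groups did not overlap in 42 of the 78, against 132 of all 1427 tested genes (9.25%), ribosomal ones included. Rpl3, a core protein of the large subunit, stood at 3356, 3736, 3051 and 3302 CPM in sham and 4221, 4469, 5982 and 4636 CPM in DOCA-salt mice (0.50 ± 0.108; adjusted p = 0.0348). Rpl12, a protein of its stalk base, stood at 2581, 2747, 3254 and 2766 CPM against 3495, 3723, 4670 and 3858 CPM (0.48 ± 0.104; adjusted p = 0.0366). Both have processed pseudogenes that can take or add reads. Neither passed without Sham mouse 1, 2 or 4 or DOCA-salt mouse 2 or 4, nor Rpl3 without Sham mouse 3 (edgeR adjusted p 0.0610 to 0.1197).

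The share of all UMIs in ribosomal protein genes was 34.1% to 35.9% in sham and 37.0% to 40.9% in DOCA-salt mice. In CD8 cells it was 36.9% to 39.2% and 38.4% to 41.3%, and in B cells 24.9% to 25.4% and 26.1% to 27.3%. How far this group stands out depends on the scaling, since it holds 34.1% or more of the UMIs. With library size alone, 68 of 78 were above 0 and the median was 0.12, while the median of all genes moved to −0.10. With DESeq2, 27 ribosomal protein genes passed, of 37 among all genes. DESeq2 left the adjusted p of 1272 of the 1427 genes undefined, so this count cannot be set against the edgeR calls.

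The start sites of genes named above are shown to compare ribosomal protein genes with and without one short motif, and with other genes. Vertebrate ribosomal protein mRNAs begin with a run of pyrimidines, the terminal oligopyrimidine tract, through which growth signals control their translation. Each sequence below runs 5' to 3' from 40 bases before to 20 bases from the RefSeq start (GRCm38.p6), and capitals mark the letters CTTTC, searched on both strands with no other motif.
Rpl12: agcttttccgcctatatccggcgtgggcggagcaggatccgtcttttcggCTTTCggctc
Rps27: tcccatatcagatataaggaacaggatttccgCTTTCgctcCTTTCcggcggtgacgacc
Rps24, upstream start: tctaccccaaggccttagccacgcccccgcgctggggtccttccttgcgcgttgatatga
Rps24, downstream start: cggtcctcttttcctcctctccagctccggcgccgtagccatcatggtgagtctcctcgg
Btg1: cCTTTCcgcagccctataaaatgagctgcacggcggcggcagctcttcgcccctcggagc
Bcl2: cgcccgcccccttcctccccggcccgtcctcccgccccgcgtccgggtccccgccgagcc
Malat1: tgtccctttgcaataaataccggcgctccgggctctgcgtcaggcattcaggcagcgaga

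Rpl12 was read at chr2:32961672-32961731 on the plus strand and Rps27 at chr3:90213629-90213688 on the minus strand. Rps24 has 2 listed starts, read at chr14:24490638-24490697 and chr14:24490713-24490772 on the plus strand. Btg1 was read at chr10:96616961-96617020 on the plus strand, Bcl2 at chr1:106714271-106714330 on the minus strand and Malat1 at chr19:5802653-5802712 on the minus strand. In Rpl12 and Rps27 the letters lie within 20 bases of the start, whereas in Btg1 they lie at the far end of the window, and neither window of Rps24 holds them. The letters are not the tract itself. Unmarked runs of pyrimidines also lie near the start of Rpl12, in both windows of Rps24 and in the windows of Bcl2 and Btg1. Such runs therefore do not set apart the ribosomal protein genes shown. Of the 58 tested ribosomal protein genes with an entry, 24 (41.4%) held the letters in this window, against 4585 of 27025 genes (17.0%). Rps27, the small-subunit protein gene, stood at 9565 to 10947 CPM in sham and 12375 to 15090 CPM in DOCA-salt mice, without overlap, and its difference of 0.36 missed the threshold (edgeR adjusted p = 0.0518). Rps24, another small-subunit protein gene, stood at 13084 to 17014 CPM in sham and 16700 to 19817 CPM in DOCA-salt mice, with overlap (0.21; adjusted p = 0.335).

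Mitochondrially encoded genes leaned the same way. All 12 tested of 13 were above 0, with a median of 0.23, against 0.13 in CD8 and 0.07 in B cells. With library size alone 10 of 12 were above 0. mt-Atp8, a subunit of ATP synthase, stood at 3329, 3751, 3951 and 3526 CPM in sham and 4466, 5164, 5704 and 4723 CPM in DOCA-salt mice and passed (0.47 ± 0.0934; edgeR adjusted p = 0.0302). It overlaps mt-Atp6 on the same strand, so that reads of the 2 genes can be divided wrongly, and it did not pass without Sham mouse 1, 2 or 4 or DOCA-salt mouse 2 or 4 (edgeR adjusted p 0.0589 to 0.0988). The cytochrome oxidase genes mt-Co1 and mt-Co3 differed by 0.30 and 0.31 without passing, and mt-Co2 by 0.39 (adjusted p = 0.0921), passing only under the antibody gate (0.0436). The median share of mitochondrial UMIs per cell ran from 1.88% to 2.10% in sham and from 2.28% to 2.48% in DOCA-salt mice.

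**Figure D5:**
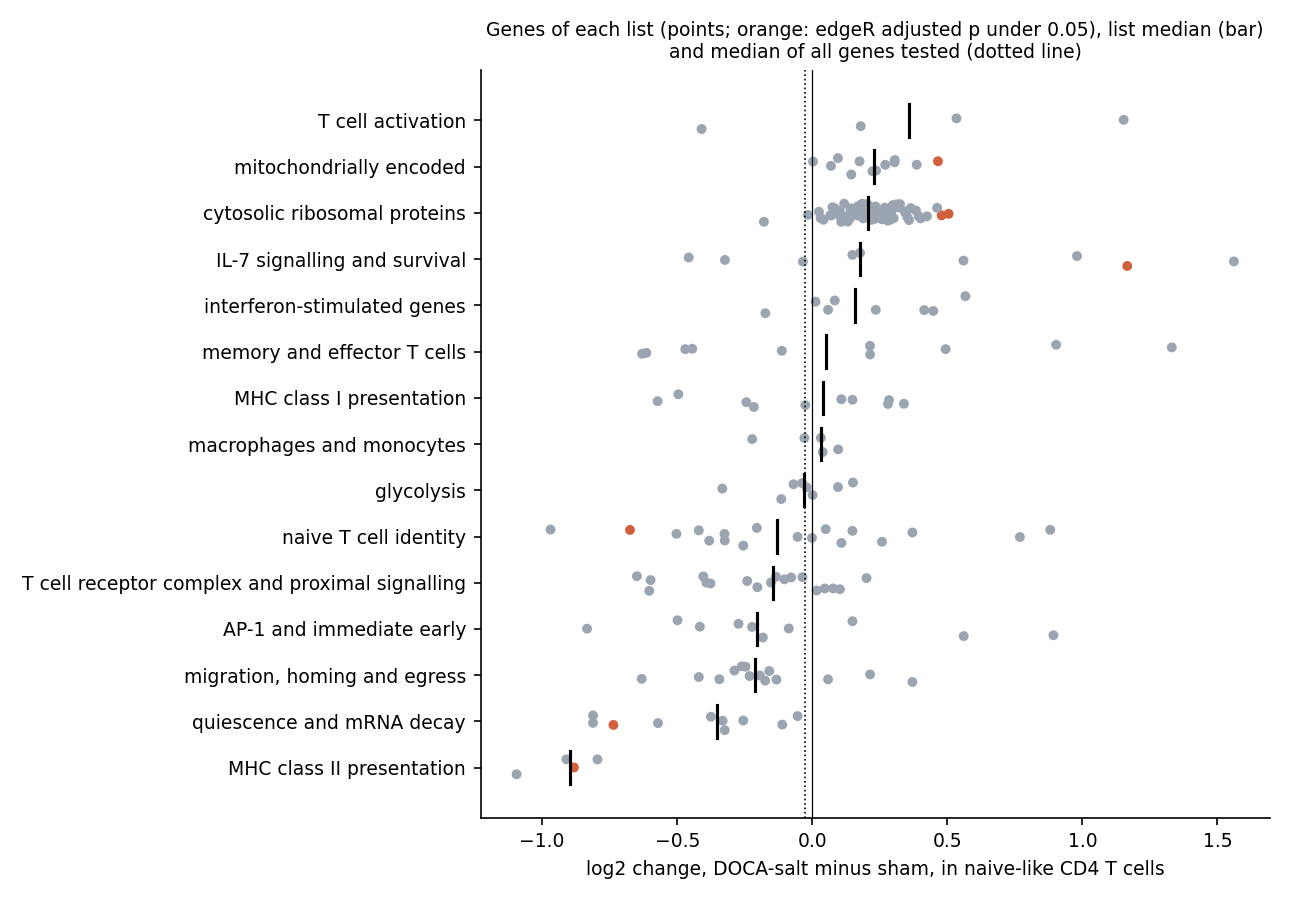
Log2 change (DOCA-salt minus sham) in naive-like CD4 T cells of the tested genes of 15 lists, without the genes used for selection; each point is a gene (orange where edgeR's adjusted p was under 0.05), each bar the median of the list, and the dotted line the median of all genes tested (−0.03). The ribosomal points crowd around 0.21, while all tested genes of the quiescence and MHC class II lists lie below 0.

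T cell receptor genes and genes of activation gave few changes. Of 25 listed for the receptor complex and its first signalling steps, 22 were tested, 4 of them used in the selection. Of the other 18, 5 were above and 13 below 0, with a median of −0.14 and 0 passing (edgeR). Trbc2, a constant region of the beta chain, stood at 915 to 1141 CPM in sham and 743 to 825 CPM in DOCA-salt mice, with no overlap (−0.38; adjusted p = 0.171). It shares much of its sequence with Trbc1. The kinase gene Lck and the adaptor gene Lat differed by −0.10 and −0.20.

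Of 19 activation genes 4 were abundant enough to be tested, with a median of 0.36 and 0 passing (edgeR). The early activation antigen gene Cd69 differed by −0.41 (adjusted p = 0.577) and Tnfsf8, the CD30 ligand, by 1.15 (0.144). Among 10 tested immediate early genes, 3 were above and 7 below 0 with a median of −0.20. Fos, an AP-1 component induced within minutes of a stimulus or of tissue handling, stood at 163, 236, 436 and 302 CPM in sham and 559, 486, 697 and 320 CPM in DOCA-salt mice, with overlap, and did not pass (0.89; adjusted p = 0.144). The CD40 ligand gene Cd40lg was the only 1 of 14 helper lineage genes tested (0.19; adjusted p = 0.863), and Il4 and Il17a had 0 UMIs in every mouse.

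Lists of memory, interferon, class I, glycolysis, corticosteroid and sodium genes held no gene that passed. Genes of memory and effector cells had 5 of 10 above 0 with a median of 0.05, interferon-stimulated genes 7 of 8 with 0.16, MHC class I presentation 5 of 10 with 0.04, and glycolysis 3 of 8 with −0.03; 0 genes of these lists passed (edgeR). Among them, the class I heavy chain gene H2-K1 stood at 2772 to 3107 CPM in sham and 3441 to 3745 CPM in DOCA-salt mice (0.28; adjusted p = 0.127). For the treatment itself, 3 of 12 genes of corticosteroid receptors and targets were tested, all below 0 with a median of −0.81, and none passed. Tsc22d3, the glucocorticoid-induced leucine zipper, differed by −0.42 (edgeR adjusted p = 0.326), and by −0.49 in CD8 cells (0.071) and −0.56 in B cells, where it passed (0.0022). Of the genes for sodium transport and osmotic response 3 of 9 were tested, all above 0 with a median of 0.14 and none passing.

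Cd74, the invariant chain that guides MHC class II molecules, is not a product of mouse T cells in any quantity, and its fall went with the class II genes. It stood at 1277, 797, 552 and 877 CPM in sham and 472, 506, 523 and 471 CPM in DOCA-salt mice (−0.88 ± 0.185; edgeR adjusted p = 0.0308). It passed only without Sham mouse 3 (edgeR adjusted p 0.0537 to 0.152 without another mouse). Sham mouse 1 was highest, with 27 and 26 of its 94 Cd74 UMIs in 2 cells. Of 7 class II genes 4 were tested, all below 0 with a median of −0.90, among them H2-Aa at −0.91 (adjusted p = 0.0826). The summed level of the list was 740 to 1925 CPM in sham and 656 to 725 CPM in DOCA-salt mice. In CD8 cells the median was −1.83, and under the antibody gate Cd74 was 0.32 and the list's median 0.32, so the direction depends on how the CD4 cells are drawn.

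RNA of other cell types was present, and in sham mice the summed macrophage and monocyte genes stood above the changed gene Bcl2. The ranges of the NK cell sums and Bcl2 overlapped in both groups. The list sums and the Bcl2 CPM are scaled differently, so the macrophage sums and Bcl2 were not ranked in DOCA-salt mice. The summed macrophage and monocyte list stood at 1027 to 1446 CPM in sham and 693 to 1264 CPM in DOCA-salt mice, and 5 of its 15 genes were tested, 3 above and 2 below 0 with a median of 0.03 and none passing (edgeR). The B cell list summed to 321 to 573 and 237 to 379 CPM, mostly Ighm, and the NK cell list to 23.9 to 1285 and 114 to 1749 CPM, with Nkg7 at 0 in 2 sham mice. Neutrophil genes were at 0 in all sham mice and at 8.77 to 480 CPM in DOCA-salt mice, red blood cell genes at 24.2 to 47.8 CPM in sham and at 0 in all DOCA-salt mice, and genes of heart stroma and muscle at 68.8 to 95.5 and 60.6 to 96.5 CPM. The gamma-delta T cell list summed to at most 16.1 and 26.5 CPM and the CD8 list to at most 104 and 87.2 CPM. Regulatory T cell genes other than Foxp3 and Il2ra, which were at 0, summed to 47.8 to 378 and 244 to 288 CPM, and Capg, the only 1 tested, differed by 0.50 (edgeR adjusted p = 0.719). Cell cycle genes summed to 96.8 to 642 and 135 to 296 CPM, and 0 were abundant enough to be tested. The part of these cells' RNA in the changes above was not tested. Without the cells holding any C1q UMI, 2 genes passed instead of 12, Malat1 (−1.02) and Btg1 (−0.76), and Bcl2 differed by 1.04 (edgeR adjusted p = 0.0591).

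The change in naive-like CD4 T cells was set against that in naive-like CD8 T cells of the same mice. Of 2883 genes, 1 differed (0.0347% of those tested; edgeR with the mouse as a block), and 195 had an unadjusted p under 0.05. This was Hmgb2, a chromatin protein abundant in dividing cells (chr8:57511907-57515999, plus strand), with a difference of −2.17 ± 0.380 (SE; adjusted p = 0.0192). In CD4 cells it stood at 1318, 236, 261 and 575 CPM in sham and 407, 240, 163 and 376 CPM in DOCA-salt mice, and in CD8 cells at 165, 99.2, 112 and 140 against 240, 541, 144 and 327 CPM. The CD4 part rests on single cells: 73 of 97 UMIs of Sham mouse 1 and 38 of 59 of Sham mouse 4 came from 1 cell each. Without Sham mouse 1 the difference was −1.69 (adjusted p = 0.214), without Sham mouse 4 it was −2.25 (0.0789), without DOCA-salt mouse 2 it was −1.72 (0.0555), and DESeq2 gave −1.99 (0.391). Under the antibody gate it was −1.43 (0.713). Of genes with a more positive change in CD4 cells none passed, and Atp1b1, a sodium pump subunit gene, differed by 1.47 (edgeR adjusted p = 0.143) and Fos by 1.59 (0.262).

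Against memory-like CD4 T cells, 1 of 881 genes differed in its change (0.114% of those tested; edgeR with the mouse as a block), and 53 had an unadjusted p under 0.05. Hspa1a, the inducible HSP70 chaperone, gave 4.78 ± 0.827 (SE; adjusted p = 0.00502). Naive-like cells held 21, 12, 0 and 3 Hspa1a UMIs in sham and 13, 35, 6 and 10 in DOCA-salt mice, and memory-like cells 12, 0, 1 and 11 in sham and 4, 2, 0 and 1 in DOCA-salt mice. Sham mouse 2 had no memory-like cell and does not enter, and 2 further sham mice had 1 cell each. Without Sham mouse 1 the adjusted p was 0.191 and without Sham mouse 4 it was 0.306 (edgeR), and without DOCA-salt mouse 1 Hspa1a did not reach the filter on low counts. Under the antibody gate the difference was 2.46 (adjusted p = 0.201).

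Surface proteins were read with 16 antibodies and compared as log2 of UMIs per 10000 antibody UMIs. Between DOCA-salt and sham, 0 antibodies passed (0% of those tested; two-sided exact permutation test, adjusted over the 16), and 3 reached the smallest p of 0.0286. Among them were CD39, an ectonucleotidase, with a log2 difference of −0.87 and CD3 with −0.23, each with adjusted p = 0.152 (exact permutation). CD39 stood at 225, 364, 278 and 430 UMIs per cell in sham and 124, 192, 236 and 180 in DOCA-salt mice. It was lower as well in CD8 cells (291 to 448 against 137 to 196) and in B cells (215 to 325 against 141 to 217).

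The CD4 antibody, the defining protein, stood at 2649, 2624, 2104 and 2791 UMIs per cell in sham and 2683, 2677, 2832 and 2744 in DOCA-salt mice, and at 14.96 to 28.6 in B cells. CD44, which rises on antigen-experienced cells, stood at 948, 877, 565 and 1166 against 1258, 1196, 976 and 1174 UMIs per cell, with a log2 difference of 0.36 (exact permutation p = 0.0857, adjusted p = 0.196). The CCR7 antibody gave 4.54 to 14.3 and 7.26 to 8.98 UMIs per cell, against 6.14 to 8.45 in B cells.

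Naive-like and memory-like cells of the same mouse were compared in the 7 mice that had both. CD44 protein was lower in the naive-like cells of all 7, by 1.23 ± 0.381 on the log2 scale (SD of the difference; two-sided exact sign-flip permutation p = 0.0156). CD3 protein was higher in all 7 by 1.26 ± 0.704 (exact permutation p = 0.0156), and CD4 protein in 6 of 7 by 0.49 ± 0.392 (exact permutation p = 0.0312). Antibodies that conventional T cells are not known to bind stood higher by as much on this scale, CD64 by 1.31, CD11b by 1.01 and TCRyd by 1.09. On UMIs per cell, CD44 was lower in all 7 by 1.46, CD3 was higher in 6 of 7 by 1.02, and CD4 in 6 of 7 by 0.25 (exact permutation p = 0.0156, 0.0312 and 0.0938). Of the 16 antibodies 0 passed after adjustment (0% of those tested), since 12 shared an adjusted p of 0.0625 (exact permutation). CD44 stood at 565 to 1166 UMIs per sham naive-like cell against 1585 to 2232 per memory-like cell, and at 976 to 1258 against 2378 to 5747 in DOCA-salt mice.

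T cell receptor use was spread over many beta chain genes. Several Trbv genes were seen in 7, 10, 3 and 13 naive-like cells of the sham mice and in 16, 5, 3 and 22 of the DOCA-salt mice. These were left out, as were cells with none. Exactly 1 Trbv gene was seen in 53 sham and 123 DOCA-salt naive-like cells. In sham cells Trbv13-2 led with 8 cells (15.1%), followed by Trbv5 with 7 (13.2%), and in DOCA-salt cells Trbv3 led with 15 (12.2%), followed by Trbv5 with 14 (11.4%) and Trbv13-2 with 13 (10.6%). The chance that 2 such cells of a mouse used the same gene was 4.55%, 5.49%, 4.44% and 7.35% in sham and 8.33%, 6.16%, 6.43% and 8.56% in DOCA-salt mice. The groups overlapped (mean 5.46% ± 1.35 against 7.37% ± 1.25, SD; exact permutation test, p = 0.114). In CD8 cells the chance was 5.65% ± 1.97 and 5.75% ± 0.578 (exact permutation p = 0.943).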

How the data were processed

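RNA and antibody libraries of pooled cardiac leukocytes from 4 sham and 4 DOCA-salt mice were analysed. The deposited matrices hold raw UMI counts for 31053 genes, 16 surface antibodies and 4 hashtags. The authors made these counts with Cell Ranger (3.1.0 per the file headers), and the submitters' processing notes name Seurat 4 and mm10. The deposited feature and barcode lists hold other content (text identifiers), with no measured values. How reads on overlapping genes were assigned is not given in the sources used here.

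Cells needed 200 or more genes, no more than 10% of UMIs from mitochondria, and a leading hashtag with 2 or more times the UMIs of the next, which named the mouse. T cells needed a CD3 sum of at least 2, at most 2 B cell UMIs and at most 4 C1q UMIs. Naive-like CD8 T cells had Cd8a or Cd8b1, no Cd4, and Lef1 or Ccr7. B cells had at least 3 B cell UMIs and no CD3 UMI. Doublets called by Scrublet (scanpy 1.11.5; 0.923% of assigned sham and 2.36% of assigned DOCA-salt cells) were kept, and removing them was an alternative.

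Sums per mouse passed through filterByExpr and TMM scaling. The test was the quasi-likelihood test of edgeR 4.0.16 (R 4.3.3, limma 3.58.1), with Benjamini-Hochberg adjustment over all genes tested and a threshold of 0.05. Differences of change used the mouse as a block. DESeq2 1.42.0 was an alternative. Shares, medians, antibodies and Trbv sharing were compared by two-sided exact permutation tests over mice (scipy 1.17.1), whose smallest p is 0.0286 with 4 against 4. Antibodies used a pseudocount of 1 on the log2 scale. The sign-flip test was planned over 8 mice and could use 7. Intervals are 95% Clopper-Pearson.

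On simulated data at these depths, the naive-like CD4 fit (1383 genes) recovered 69 of 81 genes changed 2-fold and 85 of 85 changed 4-fold, with 7 false calls. The fit against CD8 cells (2788 genes) recovered 49 of 100 and 93 of 100, with 4 false calls.

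Members, gene lists (28) and the rule for named genes were chosen with earlier results of these data known. Named were up to 15 genes per direction past the threshold with at least 50 CPM (or the 5 of smallest p), without numbered models, ribosomal, mitochondrial, sex-linked and antigen receptor genes. Also named were Igfbp4, Tcf7, Il7r, S1pr1, Klf2, Satb1, Bach2 and Malat1, up to 4 of the most abundant members of each list, all list members past the threshold, and up to 5 per direction from the fits of differing change; some results under this rule are not reported here. Positions are from GENCODE M21 (GRCm38) and start-site sequences from RefSeq (GRCm38.p6).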

Additional observations from a re-analysis of the deposited data

Results flagged for a closer look

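In 11 of 84 groups of 4 mice examined, 1 mouse lay far from the other 3 for a value of the naive-like CD4 T cells; chance alone gives about 1 in 20. Per 10000 antibody UMIs, Sham mouse 1 was low for CD11b (328, others 445 to 469), CD64 (342, others 540 to 556) and CD39 (445, others 658 to 686), and Sham mouse 3 was high for CD3 (1339, others 996 to 1008). DOCA-salt mouse 3, with 23 cells, was high for CD8a (101, others 51.7 to 58.2) and CD80 (284, others 222 to 229) and low for PD-1 (23.2, others 30.4 to 31.2), and DOCA-salt mouse 2 was low for CD3 (864, others 934 to 942). The single cell of DOCA-salt mouse 3 above 500 CD8a antibody UMIs held 776 of them. In RNA, DOCA-salt mouse 2 was low for Bcl2 (475 CPM, others 678 to 720), and DOCA-salt mouse 3 was high for Igfbp4 (3206 CPM, others 1479 to 1759) and Klf2 (3032 CPM, others 2407 to 2478).

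The change in naive-like CD4 T cells differed by a test of the difference itself for 1 gene against CD8 T cells, Hmgb2 (log2 −2.17, edgeR adjusted p = 0.0192), and for 1 gene against memory-like CD4 T cells, Hspa1a (log2 4.78, edgeR adjusted p = 0.00502). Both calls were lost without Sham mouse 1, at adjusted p = 0.214 and 0.191, and without Sham mouse 4, at 0.0789 and 0.306. The Hmgb2 call was also lost without DOCA-salt mouse 2 (0.0555), and Hspa1a did not reach the filter on low counts without DOCA-salt mouse 1.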

How the results depend on the processing

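No paired analysis was possible because hashtag numbers name mice inside a library and tie no sham animal to a DOCA-salt animal. The number of changed genes, 12, was 69 (55 higher, 14 lower) with no filter on low counts, 37 (34 higher, 3 lower) with DESeq2, which left 1272 adjusted p undefined, 20 with at least 2 UMIs of Lef1 and Ccr7, 22 (10 higher, 12 lower; 9 shared) under the antibody gate, 4 without cells with B cell UMIs, 2 without cells with C1q UMIs and 0 with cells thinned to 1000 UMIs (edgeR on 125 genes; 10 at unadjusted p under 0.05). Leaving out 1 mouse gave 0 to 25: 0 without DOCA-salt mouse 4 (143 at unadjusted p under 0.05), 1, 2 and 3 without Sham mouse 4, 2 and 1, 4 without DOCA-salt mouse 2 and 25 without DOCA-salt mouse 1. Of the alternatives, Malat1 kept its call in 17 of 19, Btg1 in 15 of 19, Bcl2 in 14 of 17 and Myo6 in 10 of 15, all in the same direction, while Cd74 reversed to 0.32 under the antibody gate.

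Genes differing in change from CD8 cells, 1 (Hmgb2), were 30 with no filter, Hmgb2 among them. They were 2 with thinned cells, 2 under the antibody gate and 1 without cells with C1q UMIs, Hmgb2 in none of these, 0 with DESeq2 (99 at unadjusted p under 0.05), 0 with a hashtag margin of 5 and 0 without cells with B cell UMIs (187 and 172 unadjusted, edgeR), and 0 to 10 without 1 mouse. Against memory-like cells, 1 gene became 0 without cells with C1q UMIs or B cell UMIs, with thinned cells and under the antibody gate (89, 29, 2 and 92 unadjusted, edgeR), and 0 to 3 without 1 mouse. Antibodies separating naive-like from memory-like cells were 12 instead of 0 without cells with B cell UMIs, and 0 to 0 without 1 mouse, as were those changed by group. The difference in median UMIs, 1801, was 1106 with the cells selected after thinning (exact permutation p = 0.0571) and 1678 to 1957 without 1 mouse, where no test could pass.

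The difference in share ran without 1 mouse from 0.336 to 0.570 percentage points of all cells, −4.16 to −1.83 of T cells and −7.97 to −4.05 of conventional CD4 T cells, and that in Trbv sharing from 1.51 to 2.54. It reversed to −0.162 of all cells with thinned cells and to 1.78 of conventional CD4 T cells when cells with C1q UMIs left the members. The CD4 antibody difference (log2) reversed to −0.0078 without cells with C1q UMIs. The CCR7 antibody difference reversed to 0.33 with thinned cells and ran from −0.33 to 0.0084 without 1 mouse, above 0 without Sham mouse 4. The cause of these changes was not tested. Depth limited the comparison to 1427 of 31053 genes.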
